A study of Mus musculus with 2 samples.

Results

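The cytosolic ribosomal protein genes are the 77 genes of the deposited gene list whose symbols follow the Rpl, Rplp, Rps and Rpsa naming of the cytosolic ribosome. The naming pattern matched 83 symbols of 32285 genes. Of these, 6 are named paralogs of a canonical gene (Rpl3l, Rpl7l1, Rpl10l, Rpl22l1, Rpl39l and Rps27l) and were described apart from the 77. The members comprised 46 genes of the large subunit and 31 of the small subunit. They lay on 19 chromosomes, 4 of them on chromosome X. The genes were chosen by symbol, with their share of transcripts per cell, its spread inside cell classes and the uneven paralogs already known from these libraries, so these measures are given as a description without a test.

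Every cytosolic ribosome carries a single copy of nearly all of these proteins, built with ribosomal RNA into a small subunit, which reads the messenger RNA, and a large subunit, which joins the amino acids. Their messages are short, stable and abundant, and most begin with a pyrimidine-rich stretch, the terminal oligopyrimidine tract, through which the mTOR pathway controls their translation. In the brain, neurons keep ribosomes in the soma and in dendrites, and several members have paralogs whose use differs between tissues.

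The samples were thalamus of 2 untreated wildtype C57BL/6J mice aged 2 months, with 1 single-cell library per mouse and no other group. Dissociated whole cells were captured with the 10x Genomics 3′ chemistry, which counts each captured RNA molecule once as a unique molecular identifier (UMI). Whether reads in introns were counted is not stated, and whether counts depend on gene length was not tested. Values are compared between genes as molecules captured, and differences in capture between genes were not measured.

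After filtering, 6185 of 7889 barcodes of mouse 1 and 9176 of 12107 of mouse 2 were kept as cells, with medians of 17998 and 14759 UMIs. The 77 genes contributed 5613954 and 5664669 UMIs, 3.71% and 2.96% of all UMIs of the kept cells, and a cell held a median of 767 and 436 of them. Cells were clustered with the ribosomal protein genes held out and named from marker genes into 13 classes, each with 20 or more cells per mouse and each called "-like", since the names rest on markers alone. Of all barcodes, 36 occurred in both libraries, 15 of them among kept cells. The mice filled some classes through different clusters. A cluster with 740 of 821 microglia-like cells of mouse 1 held 7 of 497 in mouse 2, and the cluster with most oligodendrocyte-like cells of mouse 1 (1390 of 1970) held 308 of 3306 in mouse 2.

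Ribosomal protein messages made up a share of UMIs that differed by more than 12 times between classes, and the order of classes was nearly the same in both mice. Border macrophage-like cells, which line vessels and meninges, had the highest share, 10.4% in mouse 1 and 11.8% in mouse 2. Microglia-like cells, the resident macrophages of the parenchyma, followed with 7.23% and 8.89%. In each mouse both macrophage classes lay above every other class. Endothelial-like cells of the vessel wall had 6.81% and 5.58%, mural-like cells, which are pericytes and smooth muscle, 4.84% and 5.05%, and vascular leptomeningeal fibroblast-like cells 5.5% and 3.92%. As class sums, both endothelial-like values lay above those of the other vascular classes, and mural-like and fibroblast-like values overlapped. Inside the mural-like class, however, the smooth muscle-like cluster had 7.4% and 6.12%. That was above the endothelial-like value of each mouse, and in mouse 1 also above the microglia-like value.

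Within the oligodendrocyte lineage the share was lowest at the precursor stage. Oligodendrocyte precursor-like cells had 1.43% in mouse 1 and 1.98% in mouse 2, committed precursor-like cells 3.36% and 2.92%, and myelinating oligodendrocyte-like cells 3.52% and 3.0%. The committed and the mature class overlapped, and the precursor class lay below both in each mouse. Astrocyte-like cells had the lowest share of all, 0.835% (95% Wilson interval 0.830% to 0.839%) and 0.877% (0.867% to 0.887%). These intervals cover counting error only, and in none of the 13 classes did those of the mice overlap. The ratio of border macrophage-like to astrocyte-like share was 12.5 in mouse 1 and 13.5 in mouse 2.

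The neuron-like classes lay between 2.09% and 3.58%, overlapping the oligodendrocyte-like cells. Glutamatergic neuron-like cells had 2.09% and 2.43%, GABAergic neuron-like cells 2.93% and 2.82%, habenular neuron-like cells 2.78% and 3.58%, and neuron-like cells that no transmitter or habenular marker resolved 3.04% and 3.25%. The glutamatergic class was the lowest neuronal class in both mice, and the other neuronal classes exchanged places. Over the 13 classes the shares of the mice had a Pearson correlation of 0.954 and a Spearman correlation of 0.923, a description of points that share libraries and depth. The percentage of UMIs from long genes, those spanning over 100000 bases, also differed between classes. It was lowest in border macrophage-like cells, 16.7% and 17.4%, and highest in precursor-like cells, 47.5% and 46.6%, while astrocyte-like cells, with the lowest share, had 40.7% and 39.8%. Its part in the share was not tested.

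**Figure D1:**
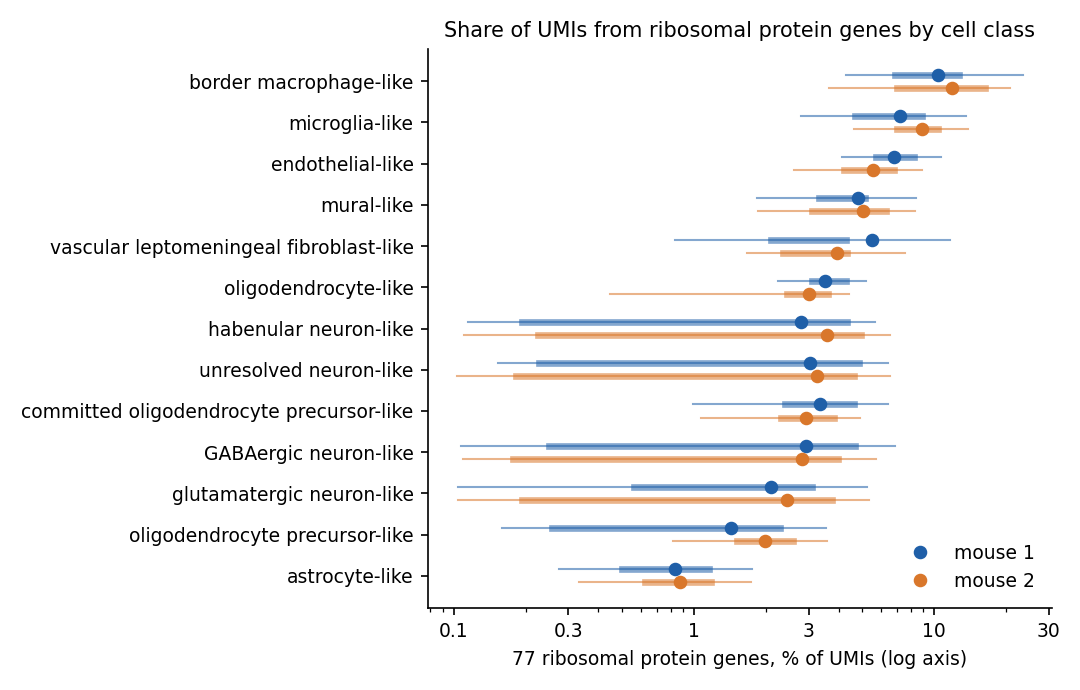
Share of UMIs from the 77 ribosomal protein genes (x axis, percent, log axis) in 13 marker-named classes (y axis), with a point per mouse for the class sum, a thick bar for the middle 50% of cells and a thin line from the 5th to the 95th percentile of cells. The macrophage classes reach 10.4% to 11.8% and the astrocyte-like class 0.835% and 0.877%, and the thin lines of the neuron-like classes run over more than a decade.

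Clusters inside a class differed as well. Among glutamatergic neuron-like cells a cluster of 62 and 410 cells had 0.200% and 0.247%, and another of 24 and 605 cells had 2.78% and 3.73%. The mural-like class was the sum of a pericyte-like cluster at 3.90% and 3.61% and a smooth muscle-like one at 7.4% and 6.12%. They held 327 and 268 cells against 50 and 207. The astrocyte-like class joined a cluster at 1.20% and 0.964% with another at 0.552% and 0.541%. Outside the 13 classes, a lymphocyte-like cluster of 13 and 10 cells had 19.9% and 23%, above every class, but was too small to enter any comparison.

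Cells of the same class differed in their ribosomal protein share far more than counting alone gives, by most measures the most among neuron-like cells. The standard deviation over cells divided by the standard deviation expected from counting was 26.6 to 28.3 in the 4 neuron-like classes of mouse 1 and 18.7 to 21.8 in mouse 2. It was 6.10 and 5.37 in astrocyte-like cells and 8.18 and 6.90 in oligodendrocyte-like cells, and every neuronal value lay above every other value of its mouse. Because deeper cells have less counting error, cells were also thinned to 2000 UMIs each, where the median over classes fell from 14 and 9.19 to 5.48 and 4.54. The ratio of the 95th to the 5th percentile of cells, which uses no counting model, was 42.2 to 64.4 in neuron-like classes and 2.58 and 3.43 in endothelial-like cells. Outside the neuron-like classes it was highest in precursor-like cells of mouse 1, at 22.5. The standard deviation as a percent of the mean gave another order in mouse 1. There it was 92.4% in precursor-like cells and 75.3% to 86.3% in neuron-like classes. In mouse 2 it was 42.1% against 77.4% to 96.7%.

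The neuron-like cells lay mostly in 2 separate ranges of the share. Below 0.5% were 149 of 525 cells (28.4%) in mouse 1 and 1023 of 2506 (40.8%) in mouse 2, at or above 2% were 263 (50.1%) and 1244 (49.6%), and between lay 113 (21.5%) and 239 (9.54%). Cells from 0.4% to 0.6% numbered 4 and 52, and cells from 1.8% to 2.2% numbered 30 and 49, so that few cells stood near the lower limit in mouse 1 and more near the upper limit. The ranges are cuts of a per-cell score and are not used as cell types. Each of the 4 neuron-like classes had cells in both, with 24.7% to 43.0% of its cells below 0.5% in a mouse. The glutamatergic class of mouse 1 was less separated. There 92 of 287 cells (32.1%) lay between the limits, more than the 71 below 0.5%, while in mouse 2 it was 213 of 1791 (11.9%). Clusters, made with these genes held out, were split in a like way. Each neuron-like class joined clusters with medians of 0.104% to 0.217% and clusters with medians of 1.66% to 5.48%. The median of 1.66%, in a glutamatergic cluster with 112 cells of mouse 1, lay between the 2 ranges. In mouse 2 that cluster had 2.26%. In habenular neuron-like cells the lower cluster had 52 and 117 cells and the higher 91 and 231. Whether the clusters are subtypes of neurons was not tested.

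**Figure D2:**
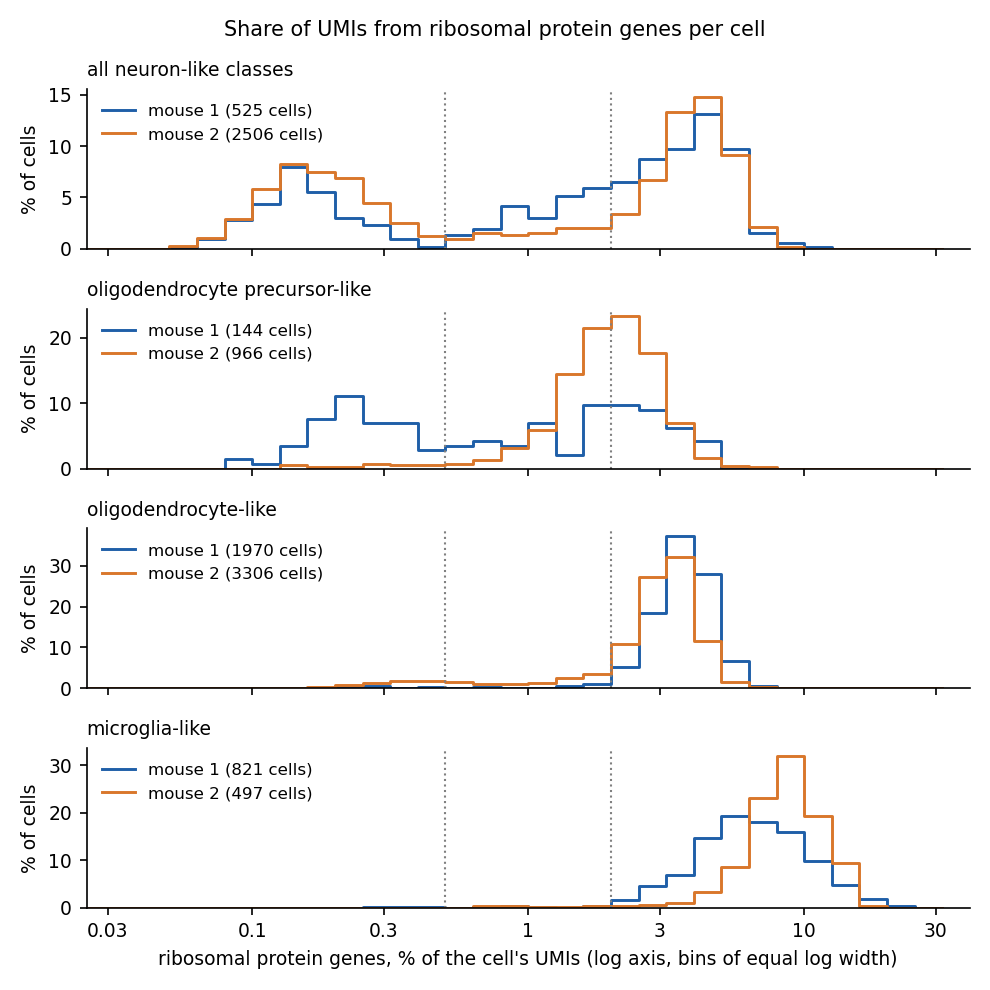
Distribution of the ribosomal protein share over cells (x axis, percent of the cell's UMIs, log axis; y axis, percent of cells per bin) for the neuron-like classes together and for precursor-like, oligodendrocyte-like and microglia-like cells, a line per mouse, with dotted lines at 0.5% and 2%. The neuron-like cells form a lower and an upper hump in both mice, precursor-like cells do so in mouse 1, where 41.0% lie below 0.5%, and 3 of 821 microglia-like cells of mouse 1 do.

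In the lower range the neuron-like cells drew 0.150% and 0.176% of their UMIs from the 77 genes, and in the upper range 3.78% and 3.94%. The long genes moved the other way: they gave 60.3% and 59.7% of UMIs in the lower range and 27.5% and 33.3% in the upper. Mitochondrial ribosomal protein genes, which are encoded in the nucleus and make the separate ribosome of mitochondria, moved with the members, at 0.0844% and 0.0846% against 0.483% and 0.470%. Fau, whose product includes a small-subunit protein and whose symbol falls outside the pattern, had 20.3 and 29.6 CPM (UMIs scaled to the same large total in every sum) against 702 and 746.

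Transcripts of the mitochondrial genome were higher in the lower range, 5.80% and 4.84% against 3.75% and 2.25% of UMIs. The nuclear RNA Malat1 had 1.32% and 1.70% against 0.907% and 1.01%, and the nuclear RNA Meg3 1.06% and 1.10% against 0.420% and 0.645%. The lower range held fewer UMIs per cell, with medians of 46763 and 23488 against 67928 and 48268. The summed pan-neuronal markers had medians over cells of 1.77% and 1.87% in the lower range and 1.19% and 1.4% in the upper. Meg3 is among these markers, so their sum is not separate from the Meg3 values above. The sum without Meg3 is not given here. The summed oligodendrocyte precursor markers had 0.137% and 0.129% against 0.0627% and 0.0725%, and the summed astrocyte markers 0.00178% and 0% against 0.00893% and 0.00623%. Erythrocyte markers had 0.0220% and 0.0102% against 0.0422% and 0.0453%, and committed precursor markers 0.0962% and 0.0995% against 0.121% and 0.155%. Markers of microglia had medians between 0.00266% and 0.00651% in both ranges, and those of border macrophages and of vascular leptomeningeal fibroblasts were at 0. The part of long-gene transcripts, nuclear RNAs, the mitochondrial percentage and depth in the separation was not tested.

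Other classes held few cells below 0.5%, with exceptions that differed between mice. In precursor-like cells they were 59 of 144 (41.0%) in mouse 1 and 27 of 966 (2.80%) in mouse 2, and in astrocyte-like cells 24.8% and 13.5%. Of the 13 classes the precursor-like class had the widest gap between mice in this percentage. Its median cell had a share of 0.848% in mouse 1 and 2.00% in mouse 2. The largest cluster of the class, with 77 and 914 cells, was alike in the mice, at 2.04% and 2.00%. Another cluster, with 61 and 23 cells, had 0.398% and 0.366%, so the mice filled the class in different proportions. Oligodendrocyte-like cells had 1.47% and 5.90% of their cells below 0.5%.

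Across the cells of a class, the share of large-subunit genes and the share of small-subunit genes rose and fell together, with Spearman correlations of 0.87 to 0.99 over the 26 combinations of class and mouse. The correlation of the share with the mitochondrial ribosomal protein share was 0.87 to 0.97 in neuron-like cells and 0.43 and 0.18 in border macrophage-like cells. With the long-gene percentage it was -0.95 to -0.60. These describe 21 to 3306 cells per class that share a library and its depth, and both measures of a pair are parts of the same total.

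The balance between subunits was nearly constant but not level over classes. The ratio of large-subunit to small-subunit UMIs was highest in precursor-like cells, 1.63 and 1.6, and lowest in border macrophage-like cells, 1.25 and 1.16. It was 1.57 and 1.52 in glutamatergic neuron-like cells and 1.3 and 1.26 in microglia-like cells. In each of the 13 classes mouse 1 had the higher ratio, so the mice differed in the same direction throughout while keeping the order of these classes.

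The composition of the ribosomal protein messages, that is each gene's part of their sum, differed between classes for most members. The highest class mean of a gene over its lowest had a median of 1.76 over the 77 genes and ran from 1.28 for Rpl35, a large-subunit protein, to 4.61 for Rpl13. It exceeded 1.5 in 59 genes, 2 in 23 and 3 in 4, and 49 genes had the same highest class in both mice. Among the genes with the most UMIs over both mice were Rplp1, Rps29, Rpl13 and Rps27a, and the 5 with the fewest were Rpl35, Rpl29, Rpl22, Rpl36a and Rpl10a. Rplp1 had 153501 and 146879 UMIs and Rpl10a 29548 and 32324. Over the 77 genes the composition of the mice correlated at 0.895 to 0.964 within a class, and that of different classes at 0.561 to 0.980 in mouse 1 and 0.614 to 0.992 in mouse 2, where genes are not independent points.

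**Figure D3:**
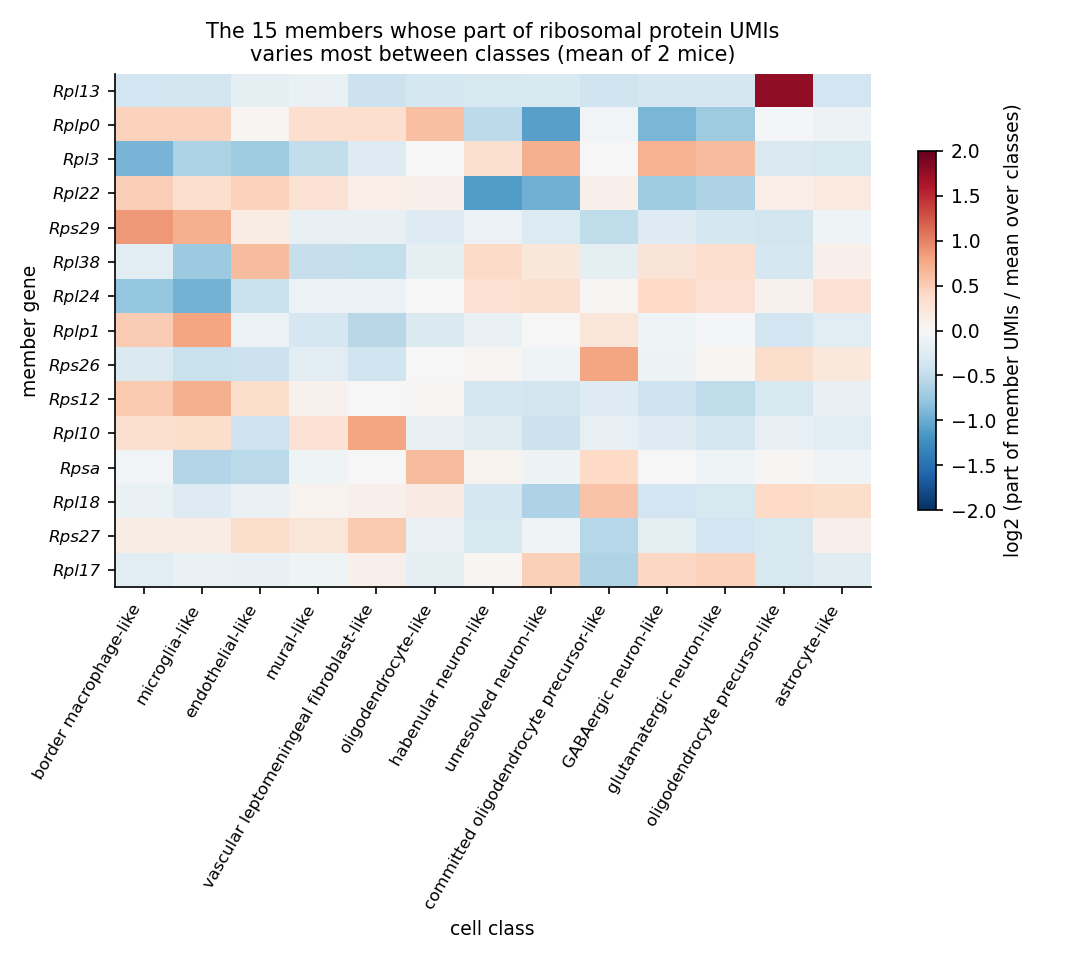
The 15 members (y axis) whose part of the ribosomal protein UMIs has the largest ratio between its highest and lowest class mean, in 13 classes (x axis) ordered by share, coloured by log2 of the part over the gene's mean over classes (mean of 2 mice). Rpl13 stands out in the precursor-like column, Rpl3 is high and Rplp0 and Rpl22 are low in the neuron-like columns, and Rps29 and Rplp1 are high in the macrophage columns.

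Rpl13, a large-subunit protein (chr8:123102350-123105244, plus strand, GRCm38), set the precursor-like cells apart. It made up 8.85% and 9.69% of their ribosomal protein UMIs. In the other 12 classes its part ran from 1.85% to 2.57%, so no other class in either mouse came near the precursor-like values. The next stage of the lineage, the committed precursor-like cells, had 1.85% and 2.26%. Inside the precursor-like class it was high in both ranges of the share, 6.35% and 6.12% below 0.5% (119 and 40 UMIs) and 8.53% and 9.74% at or above 2%.

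Rplp0, Rplp1 and Rplp2 form the stalk of the large subunit, which recruits translation factors. Rplp0 (chr5:115559467-115563727, plus strand) made up 1.17% and 1.12% in oligodendrocyte-like cells and 0.302% to 0.606% over the neuron-like classes, below its part of 0.694% or more in every other class. Rplp1 was highest in microglia-like cells, 4.49% and 4.73%, and border macrophage-like cells, 4.15% and 3.46%, and lay between 1.67% and 3.32% elsewhere. Rplp2 varied less, from a mean of 1.12% ± 0.0560 (SD, n = 2 mice) in unresolved neuron-like cells to 1.63% ± 0.148 in microglia-like cells. The 3 stalk genes thus had different profiles over classes.

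Rpl3, a protein close to the catalytic centre of the large subunit (chr15:80077791-80091868, minus strand), was high in the class sums of neurons: 2.17% and 2.52% in unresolved, 2.17% and 2.42% in GABAergic and 2.02% and 2.38% in glutamatergic neuron-like cells. Habenular neuron-like cells had 1.51% and 2.03%, of which the first lay at the level of oligodendrocyte-like cells (1.32% and 1.52%). Border macrophage-like cells had 0.668% and 0.820%. Rpl22, an RNA-binding protein of the large subunit (chr4:152325742-152334071, plus strand), had the reverse profile, with 0.269% to 0.388% over the neuron-like classes and 0.563% to 0.837% over all others. For Rpl22, as for Rplp0, the class sums of neuron-like cells did not overlap those of the other classes. Inside the neuron-like cells Rpl22 depended on the range of the share: it was 0.704% and 0.7999% below 0.5% (85 and 384 UMIs), within the values of the other classes, and 0.332% and 0.347% at or above 2%. Rplp0 was 0.646% and 0.627% against 0.511% and 0.374%. Rpl3 depended on the range too, with 1.51% and 1.66% below 0.5% (182 and 799 UMIs) and 1.96% and 2.41% at or above 2%. Its lower-range values lay close to those of oligodendrocyte-like cells.

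Rpl38, a small protein of the large subunit known for skeletal patterning in mice (chr11:114668524-114672331, plus strand), was highest in endothelial-like cells, 2.39% and 2.13%, and lowest in microglia-like cells, 0.991% and 0.771%. Mural-like cells, the other part of the vessel wall, had 1.12% and 1.00%. Rps29, a zinc-binding protein of the small subunit, made up 5.33% and 3.85% in border macrophage-like and 4.41% and 3.78% in microglia-like cells, and 1.64% to 2.94% in the other classes. Rpl24 ran the other way, with 0.714% and 0.765% in microglia-like cells and 1.84% and 1.91% in GABAergic neuron-like cells.

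The promoters of members whose part varied most, and of the paralog Rpl22l1, are shown with motifs marked where they occur. Each line gives 60 bases before and 20 bases from the annotated RefSeq start (GRCm38.p6), 5′ to 3′ on the gene's strand. Capitals mark the pyrimidine motif CTTTC on the sense strand, the ETS-type motif CCGGAAG on either strand or the TATA motif TATAAA on the sense strand. The windows lie at chr8:123102290-123102369 (Rpl13), chr5:115559407-115559486 (Rplp0), chr4:152325666-152325745 (Rpl22, the start listed as number 1), chr11:114668520-114668599 (Rpl38) and chr3:28805448-28805527 (Rpl22l1), all on the plus strand.
Rpl13: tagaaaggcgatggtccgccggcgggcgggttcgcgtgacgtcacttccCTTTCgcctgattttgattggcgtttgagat
Rplp0: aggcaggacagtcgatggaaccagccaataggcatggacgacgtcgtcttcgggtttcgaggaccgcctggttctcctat
Rpl22: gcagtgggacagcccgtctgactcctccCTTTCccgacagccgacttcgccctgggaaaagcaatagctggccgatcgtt
Rpl38: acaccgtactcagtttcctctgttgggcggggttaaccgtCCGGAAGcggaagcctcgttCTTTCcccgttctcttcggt
Rpl22l1: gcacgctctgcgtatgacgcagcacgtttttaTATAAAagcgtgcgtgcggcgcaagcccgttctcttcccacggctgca

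Of the 77 members, 57 had a promoter in the RefSeq table, with 67 annotated starts. CTTTC on the sense strand within 50 bases of the start was found in 31 of the 57 (54.4%), beside 14.6% of 27025 genes. CCGGAAG on either strand from 250 bases before to 50 after the start was found in 24 (42.1%), beside 9.93%. TATAAA within the 50 bases before the start was found in none of the 57, beside 3.15% of all genes, while the paralog Rpl22l1 has it. A match is a run of letters and not a measured site, and Rplp0 has none of the 3 motifs in the window shown.

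Differences between classes were tested over all 17269 genes with enough counts, on UMIs summed per mouse and class, with class and mouse in a single edgeR fit. All 77 members were among the genes tested. CPM given beside a fold change are plain means over the classes of a side, without TMM scaling. The fold change comes from the fit, which averages classes on the log scale after scaling. A ratio of the CPM can therefore differ from it. The first scale was the usual library scaling (TMM), where a call needed an adjusted p below 0.05 (Benjamini-Hochberg) together with a log2 fold change of at least 1. On the second, the ribosomal protein scale, the library size was the summed UMIs of the 77 genes, so that a change is a change in the gene's part of them, and the limit was 0.5. That scaling holds the members as a whole near 0 and shifts all other genes. The shares of all genes called there are printed beside the members but are no benchmark for them. On the second scale the median log2 fold change of all genes moved to 0.61 for neuron-like against non-neuronal classes, 0.24 for glutamatergic against GABAergic, -0.43 for habenular against glutamatergic, -1.3 for oligodendrocyte-like against precursor-like, -1.6 for microglia-like against the other classes and -0.42 for endothelial-like against mural-like cells, from between -0.04 and 0.10 on the first. Scaling by library size alone moved the all-gene median by more than 0.1 in 5 of the 6 comparisons, most in the oligodendrocyte-like (to -0.40) and microglia-like (to -0.33) ones. The members' median kept its sign in all 6, at -0.44, -0.35, 0.52, 1.04, 1.26 and 0.31 in the order above. The comparisons share class sums with each other. The p-values rest on how class values differ between 2 animals once a common mouse difference is taken out, pooled over the 13 classes (12 residual degrees of freedom). They treat the classes of an animal as independent and do not measure the spread between animals. Calls on the TMM scale are a description because the class shares were known when the genes were chosen.

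The first comparison set the average of the neuron-like classes against that of all non-neuronal ones. Most members were lower in neuron-like cells, by a median log2 fold change of -0.61 on the TMM scale beside 0.02 over all genes. Of the 77, 69 were lower and 1 higher at an adjusted p below 0.05 (edgeR quasi-likelihood test, Benjamini-Hochberg), and with the fold limit 6 were called lower and 0 higher. Over all genes 14.6% were called lower and 24.2% higher, so the called share of the family was below that of all genes in both directions. Rpl22, Rplp0, Rpl18, Rps12 and Rps9 were among the 6.

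Rpl22 had 89.4 and 96.7 CPM in neuron-like classes and 357 and 364 in the others, so that each mouse showed the same wide gap. Its log2 fold change was -1.71 ± 0.11 (SE; edgeR quasi-likelihood, adjusted p = 3.68e-11). Rplp0 had 135 and 112 CPM against 460 and 468, a log2 fold change of -1.66 ± 0.12 (edgeR, adjusted p = 2.76e-10). Rps12, a small-subunit protein, had 261 and 294 against 768 and 796. Rpl3 was the member with a positive value, 0.38, with 534 and 702 CPM against 438 and 532, and did not reach the fold limit. Without cells in which long genes gave over 50% of UMIs, an exclusion chosen after seeing the data, 2 of the 6 calls were left, Rpl22 and Rplp0, as was the case with library size alone, with a mitochondrial limit of 5% or without clusters of low UMI counts.

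On the ribosomal protein scale the neuron-like composition differed in 8 members, 4 higher and 4 lower. Of all genes, which this scale shifts up, 49.2% and 12.2% were called, a larger share than in the family. Rpl3 rose by 0.99 ± 0.12 on the log2 scale (edgeR quasi-likelihood, adjusted p = 4.13e-08), and Rpl17, Rpl24 and Rpl38 rose by 0.55, 0.55 and 0.51. The last 3 had log2 fold changes of -0.06 to -0.10 on the TMM scale, so their direction depends on the scale. Rpl22 changed by -1.10 ± 0.11 (edgeR, adjusted p = 6.90e-09), Rplp0 by -1.05 ± 0.12, Rpl18 by -0.54 and Rps12 by -0.52, negative on both scales. The 8 moved the same way in each mouse.

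Between glutamatergic and GABAergic neuron-like cells no member was called on either scale by edgeR, where 9.73% of all genes were called on the TMM scale and 8.49% on the ribosomal protein scale. None of the 77 had an unadjusted p below 0.05, the smallest adjusted p was 0.419 and 0.541, and DESeq2 called 0 on both. Log2 fold changes lay between -0.42 and 0.19 on the TMM scale. Between habenular and glutamatergic neuron-like cells no member was called either, where 20.5% and 23.8% of all genes were. There 16 members had an unadjusted p below 0.05 on the TMM scale and 1 on the other. DESeq2 called 0 and 1, and Rpl39, a very small large-subunit protein, had a log2 fold change of 0.84 with an edgeR adjusted p of 0.0245, short of the fold limit. The median member was 0.43 higher in habenular cells.

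From precursor-like to oligodendrocyte-like cells nearly the whole family was higher. On the TMM scale 74 of 77 members were called higher and 0 lower, with a median log2 fold change of 1.5, where 15.7% of all genes were called higher, 21.6% lower and their median was 0.05. The fold was larger in mouse 1 (median 1.91) than in mouse 2 (1.08). The precursor-like class of mouse 1 was the class with 41.0% of its cells below a share of 0.5%, and in mouse 2 alone 49 of the 74 reached the fold limit. With library size alone 43 were called higher and 1 lower.

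Rps21, a small-subunit protein, had 839 and 599 CPM in oligodendrocyte-like and 214 and 231 in precursor-like cells, a log2 fold change of 2.13 ± 0.29 (edgeR quasi-likelihood, adjusted p = 4.24e-06). Rps6, the small-subunit protein phosphorylated by S6 kinase, had 421 and 355 against 110 and 141. Rpsa, which doubles as a laminin receptor precursor, had 679 and 583 against 192 and 238. All 3 were above in both mice without overlap. The exceptions were Rps18 (0.99), Rpl10a (0.42) and Rpl13, which had 698 and 675 CPM in oligodendrocyte-like cells and 1268 and 1915 in precursor-like cells (-0.73 ± 0.28).

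On the ribosomal protein scale 4 members were called higher in oligodendrocyte-like cells and 2 lower, where 5.08% and 58.3% of all genes were called. The higher share is near that of all genes, which this scale shifts down. Rps21 rose by 0.72, Rps6 by 0.69, Rps3 by 0.66 and Rplp0 by 0.65, with edgeR adjusted p from 0.0276 to 0.0442. Rpl13 changed by -2.13 ± 0.31 (edgeR, adjusted p = 3.26e-06) and Rpl10a by -0.97 ± 0.25 (adjusted p = 0.00222). Rpl10a made up 0.387% and 0.405% in oligodendrocyte-like cells and 0.789% and 0.760% in precursor-like cells. Without the filter on low genes the 2 lower calls were left and the 4 higher were not.

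**Figure D4:**
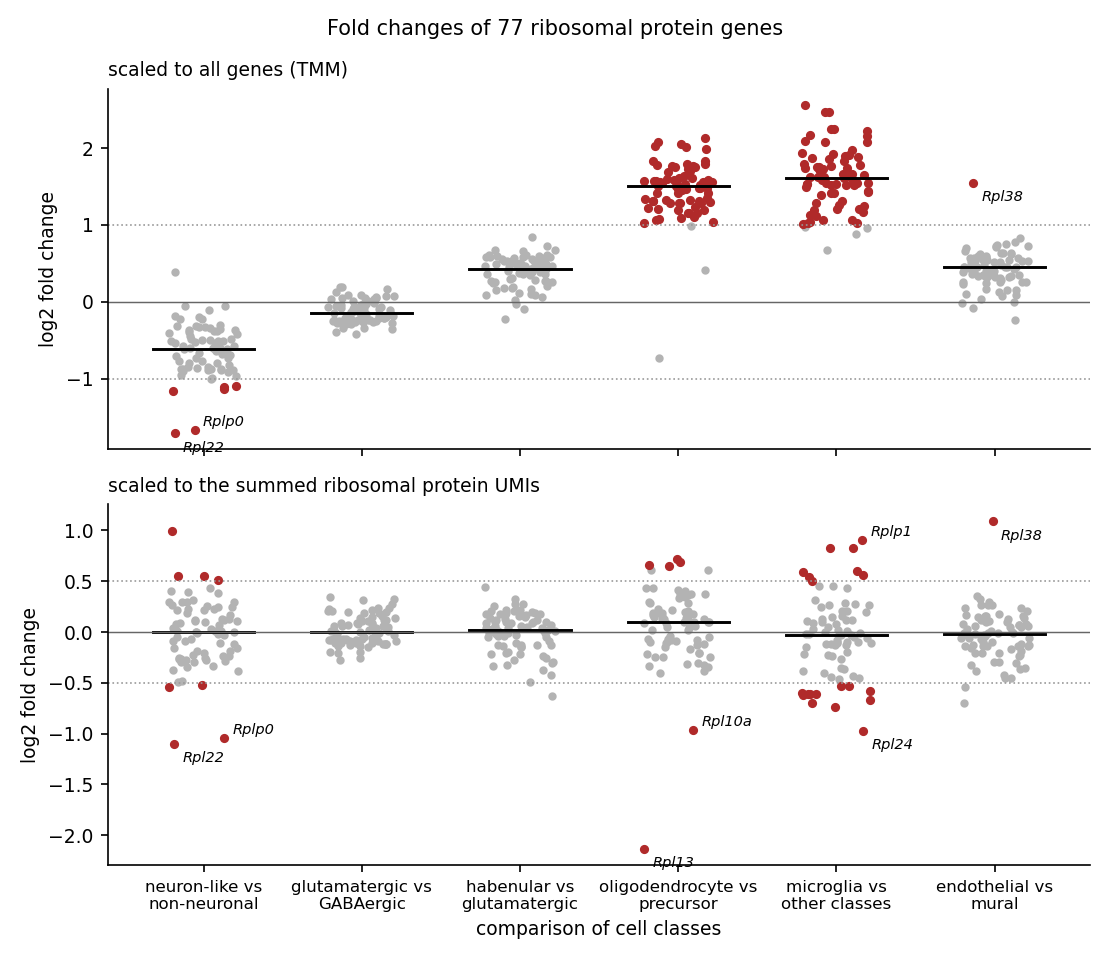
Log2 fold changes (y axis) of the 77 members in 6 comparisons of classes (x axis), scaled to all genes above and to the summed ribosomal protein UMIs below, with called members in red, others in grey, the median as a black line and the fold limits dotted. The family moves together in the oligodendrocyte-like and microglia-like comparisons of the upper panel, with 74 and 73 calls, and single genes such as Rpl13 and Rpl38 stand apart in the lower panel.

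Microglia-like cells had higher levels of the family than the mean of the other classes. On the TMM scale 73 of 77 members were called higher and 0 lower, with a median log2 fold change of 1.61 beside -0.03 over all genes, of which 21.6% were called higher and 16% lower. Rplp1 had 3248 and 4209 CPM against 1094 and 1047. Its fitted log2 fold change was 2.55 ± 0.16 (edgeR quasi-likelihood, adjusted p = 6.03e-11), larger than the ratio of these CPM in either mouse. Rps29 had 3189 and 3364 against 1188 and 1007, and Rps12 1498 and 1869 against 538 and 539. Rpl14, Rpl31, Rpl38 and Rpl24, all of the large subunit, had log2 fold changes of 0.98, 0.96, 0.89 and 0.68, short of the limit.

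On the ribosomal protein scale 8 members were called higher in microglia-like cells and 12 lower, where 11% and 57.6% of all genes were called. The share called higher is near that of all genes, and the share called lower is smaller, but the scale itself shifts all genes down and not the members. Higher were the stalk genes Rplp1 (0.90 ± 0.20; edgeR adjusted p = 3.45e-04) and Rplp0 (0.59), the small-subunit genes Rps29 (0.83), Rps12 (0.82) and Rps9 (0.60), and 3 more from 0.51 to 0.56. Lower were Rpl24 (-0.97 ± 0.22; edgeR adjusted p = 4.38e-04), Rpl38 (-0.74), Rpl31 (-0.70), Rpl14 (-0.67) and Rpl41 (-0.62), and 7 more from -0.61 to -0.53. These 12 were all above 0 on the TMM scale, so their direction depends on the scale. Without the filter on low genes 9 of the 20 calls were left.

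Between endothelial-like and mural-like cells 5 members were higher and 0 lower at an adjusted p below 0.05 (edgeR quasi-likelihood test, Benjamini-Hochberg), and 1 of them passed the fold limit. Rpl38 had 1630 and 1190 CPM in endothelial-like and 540 and 507 in mural-like cells, a log2 fold change of 1.55 ± 0.25 (edgeR quasi-likelihood, adjusted p = 8.71e-05). It was the member called higher, where 11% of all genes were called higher. On the ribosomal protein scale it was again the only member called by edgeR, at 1.09 ± 0.28 (adjusted p = 0.00450), where 7.72% of all genes were called higher. On both scales this is a smaller share of the family than of all genes, which the second scale shifts down. The change within each mouse on that scale was 1.10 and 1.09. The members' median was 0.45 on the TMM scale, 0.70 in mouse 1 and 0.11 in mouse 2, and haemoglobin UMIs in the endothelial-like class were 2.78% and 0.982%. With a mitochondrial limit of 5% the call count on the TMM scale was 10.

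The paralog Rpl22l1, whose product can take the place of Rpl22 on the ribosome, had a profile of its own. In neuron-like classes it had 227 and 341 CPM (glutamatergic), 336 and 445 (GABAergic), 249 and 418 (habenular) and 340 and 589 (unresolved), beside 76.5 to 108 CPM of Rpl22. In microglia-like cells it had 106 and 147 CPM beside 569 and 617 of Rpl22. Rpl22l1 UMIs were thus the larger part of the pair in the class sum of every neuron-like class and the smaller part in every macrophage and endothelial one. In neuron-like cells below a share of 0.5% this did not hold in mouse 1, where Rpl22l1 was 44.4% of the pair (68 UMIs beside 85 of Rpl22), while mouse 2 had 66.0% (747 beside 384). At or above 2% it was 76.7% and 80.6%.

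As a part of the pair's UMIs, Rpl22l1 ran from 74.1% to 85.8% over the neuron-like classes and mice. Astrocyte-like cells had 51.6% and 52.3%, oligodendrocyte-like cells 35.2% and 37.3%, endothelial-like cells 19.9% and 27.5%, border macrophage-like cells 17.7% and 18.9%, and microglia-like cells 15.7% and 19.2%. Vascular leptomeningeal fibroblast-like cells, with 21 and 48 cells, had 45.5% and 67.7%, the widest gap between mice. In 11 of the 13 classes the level of Rpl22l1 in CPM was higher in mouse 2. The highest class mean, 464.7 ± 175.7 CPM in unresolved neuron-like cells, and the lowest, 62.6 ± 12.6 in astrocyte-like cells (SD, n = 2 mice), were 6.34 and 8.23 times apart in the mice.

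**Figure D5:**
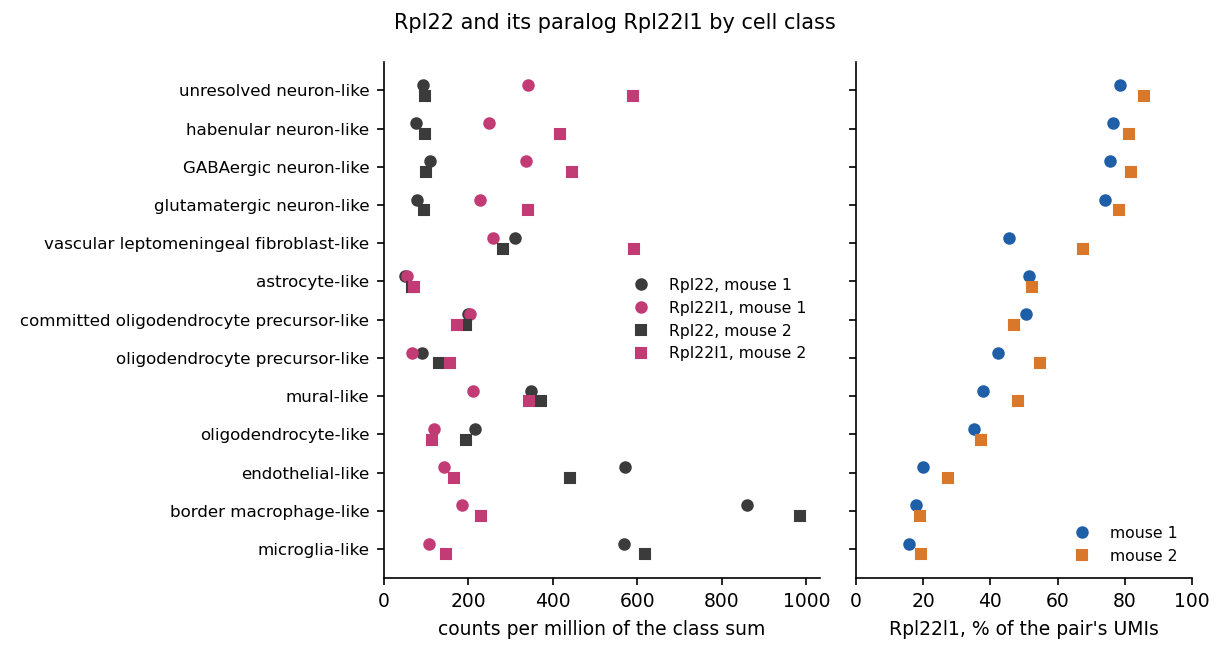
Left, CPM of Rpl22 (dark) and Rpl22l1 (pink) in 13 classes (y axis), with a symbol per mouse. Right, Rpl22l1 as a percent of the pair's UMIs, from 74.1% to 85.8% in neuron-like classes down to 15.7% and 19.2% in microglia-like cells.

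The messages of the pair can be told apart by sequence, which matters because copies of ribosomal protein genes are common. The most alike stretch of 60 bases of their coding sequences (GENCODE vM21 transcripts, bases 231 to 290 of 384 in Rpl22 and 213 to 272 of 366 in Rpl22l1) is shown with the differing bases in capitals. The stretches have 52 bases the same and 8 different.
Rpl22: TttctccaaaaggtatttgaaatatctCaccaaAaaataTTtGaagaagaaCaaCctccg
Rpl22l1: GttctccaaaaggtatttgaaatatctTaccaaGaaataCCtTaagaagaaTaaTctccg
No run of 50 bases in the last 300 bases of either transcript occurs in the other gene of the pair. The last 300 bases of the Rpl22 transcript share no run of 50 with any other annotated gene. Runs of 50 outside these ends were not compared. The end of Rpl22l1 shares 63.3% of its runs with annotated genes outside the deposited list. An annotated antisense gene, Gm33051, overlaps Rpl22l1, and whether the counting used strand is not stated.

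Rps27l, a paralog of the small-subunit gene Rps27, ran from 25.7 ± 1.66 CPM in glutamatergic neuron-like to 228 ± 6.47 in border macrophage-like cells. As a part of its pair it was highest in committed precursor-like cells (35.7% ± 3.77) and lowest in microglia-like cells (6.44% ± 1.77). The closest 60 bases of their coding sequences (bases 40 to 99 in each) have 50 the same and 10 different, again in capitals.
Rps27: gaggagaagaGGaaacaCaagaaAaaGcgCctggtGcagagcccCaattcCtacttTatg
Rps27l: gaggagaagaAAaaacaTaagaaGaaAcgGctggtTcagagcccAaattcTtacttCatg
Runs of 50 bases cannot tell the end of Rps27 from Rps27rt, since all such runs in its last 300 bases occur in that gene. The deposited counts gave Rps27 85990 and 65987 UMIs and Rps27rt 2168 and 1937, and how such reads were assigned was not tested. The other paralogs were less abundant or followed their partner. Rpl36al had 402 ± 79.0 CPM in border macrophage-like and 50.1 ± 3.74 in astrocyte-like cells, the classes with the highest and lowest share of the family, and Rpl7l1 ran from 25.7 ± 0.535 in astrocyte-like to 74.98 ± 4.99 in fibroblast-like cells. Rpl3l, a paralog known from muscle, had 60 and 61 UMIs over all classes, and 2.34 ± 0.141 CPM in astrocyte-like cells. Rpl39l had 20 and 2 UMIs. Rpl10l had 0 in both mice, which in the deepest class, glutamatergic neuron-like cells, allows up to 0.116 and 0.0373 CPM (3 UMIs).

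Genes of the translation machinery outside the symbol pattern were read from lists in the same fits on the TMM scale, where the all-gene medians were 0.02 for neuron-like, 0.05 for oligodendrocyte-like and -0.03 for microglia-like cells. The shares of all genes called higher and lower there were 24.2% and 14.6%, 15.7% and 21.6%, and 21.6% and 16%. Ribosome constituents among them include Fau and Rack1, a scaffold on the small subunit. Fau and Rack1 were called higher in oligodendrocyte-like against precursor-like cells (1.90 and 1.42) and in microglia-like cells (2.28 and 1.79), and Rack1 lower in neuron-like cells (-1.17). Over the 13 classes the summed share of the constituents listed correlated with that of the members at 0.993 in each mouse, a description of 13 class sums that share libraries.

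Elongation factors split between isoforms. Of 10 tested, 6 were called higher and 2 lower in oligodendrocyte-like against precursor-like cells, with a list median of 1.18. Eef1a1, the general factor that brings transfer RNA to the ribosome, had 1777 and 1536 CPM against 418 and 546 (2.24 ± 0.29; edgeR quasi-likelihood, adjusted p = 2.62e-06), while its paralog Eef1a2, known from neurons and muscle, had 6.84 and 9.97 against 56.3 and 60.04 (-2.34 ± 0.44). In neuron-like classes Eef1a2 had 353 and 217 CPM against 14.4 and 21.0, and 3 factors were higher and 1 lower there (median -0.18). In microglia-like cells 4 were higher and 2 lower (median 0.51).

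Of 30 initiation factors, 12 were higher and 0 lower in oligodendrocyte-like cells (median 0.88), where 15.7% of all genes were higher, among them Eif1 (2.2), Eif4h (1.88) and Eif5 (1.71). In microglia-like cells 3 were higher and 0 lower (median 0.31), where 21.6% of all genes were higher. There Pabpc1, the poly(A)-binding protein, had 280 and 516 CPM against 105 and 117 (2.41). Of 14 other messages known for a terminal oligopyrimidine tract, 4 were higher and 1 lower in oligodendrocyte-like cells (median 0.67), led by Tpt1 (2.30), and 4 higher and 1 lower in microglia-like cells (median 0.35). Of 31 ribosome biogenesis genes, 3 were higher and 1 lower in oligodendrocyte-like cells (median 0.28) and 4 higher and 0 lower in microglia-like cells (median 0.17), smaller shares than the 15.7% and 21.6% of all genes called higher. Of 20 genes of the mTOR pathway and its oligopyrimidine-tract regulators, 4 were higher and 2 lower in oligodendrocyte-like cells (median 0.32), and 3 higher and 1 lower in microglia-like cells (median 0.12).

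Mitochondrial ribosomal protein genes had another order over classes than the cytosolic members. Of 78, 16 were called higher and 0 lower in oligodendrocyte-like against precursor-like cells (median 0.64), 1 higher and 5 lower in microglia-like cells (median -0.43), and 1 higher and 0 lower in neuron-like cells (median 0.26). Beside the 15.7% of all genes called higher the first is a larger share, and those in microglia-like cells are smaller than the 21.6% and 16% of all genes. Their summed share was 0.371% and 0.382% in habenular neuron-like cells, 0.416% and 0.337% in committed precursor-like cells and 0.240% and 0.158% in microglia-like cells, and the order of classes differed between the mice. Over the 13 classes it correlated with the members' share at 0.399 in mouse 1 and -0.243 in mouse 2, where the list of elongation factors gave 0.925 and 0.961 and the other oligopyrimidine messages 0.970 and 0.981.

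The genes whose level over the 13 classes was most like the summed members, of 4496 with at least 50 CPM on average, were Gm10076, Tmsb4x, Arpc2, Gpx1 and Sh3bgrl3. Their Pearson correlations of log2 CPM were 0.957 and 0.948 for Gm10076, 0.950 and 0.931 for Tmsb4x, which encodes the actin-binding peptide thymosin beta, and 0.911 and 0.941 for Arpc2, a subunit of the actin-branching complex. Gpx1, a glutathione peroxidase, had 0.904 and 0.910, and Sh3bgrl3 0.905 and 0.901. Gm10076 shares 62.9% of the runs of 50 bases in the end of Rpl41, so those runs cannot tell it from that member. How such reads were assigned was not tested.

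Copies and neighbours limit some single genes. Of the 77 members, 53 share a run of 50 bases in their last 300 bases with another annotated gene, in the median member 33.9% of the runs, and for 6 of them more than 50% of the runs occur in another gene of the deposited list. Among the genes described above, Rplp0, Rpl22 and Rpsa share none, Rpl13 shares 83.3% with annotated genes outside the deposited list, and Rpl35 shares 96.0% with the listed gene Gm2000. An annotated gene overlaps 21 members, 20 of them on the opposite strand, such as Syngr1 at Rpl3 and Sphk2 at Rpl18.

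The mice differed in composition in the same direction in every class for 25 of the 77 members. In 13 members the part was higher in mouse 1 in all 13 classes, with a median ratio of 1.37 for Rpl29, 1.3 for Rps26 and 1.16 for Rpl38. In 12 it was higher in mouse 2, with 0.802 for Rps3, 0.817 for Rpl3 and 0.822 for Rps4x. The class differences of Rpl13, Rplp0 and Rpl22 exceeded these ratios in each mouse. With 1 library per mouse, animal and library preparation cannot be told apart.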

How the data were processed

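Single-cell libraries of thalamus from 2 mice were analysed. The deposited matrices hold UMI counts per gene and barcode, made by the authors with Cell Ranger 7.1.0 on mm10, per the file headers and the submitters' processing notes, which also name Seurat 5 without its role. The annotation version and the intron and strand settings are not given in these sources.

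Barcodes with under 500 genes or 1000 UMIs, or over 15% mitochondrial UMIs, were left out, as were 181 and 262 doublets (2.84% and 2.78%) called by Scrublet. Cells were normalized and clustered with scanpy 1.11.5 (2000 variable genes, 30 components, 15 neighbours, Leiden resolution 1) without ribosomal, mitochondrial, haemoglobin and listed genes, and named from fixed markers. UMIs summed per mouse and class, for classes of 20 or more cells per mouse, entered edgeR 4.0.16's quasi-likelihood test with class and mouse as terms (R 4.3.3), with Benjamini-Hochberg adjustment over 17269 genes. The mouse was a term because all classes of a mouse come from 1 animal. The mouse differences of pairs of classes correlated at 0.0447 to 0.428 over genes (78 pairs). Positions and transcripts came from GENCODE vM21 and promoters from RefSeq GRCm38.p6.

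Per comparison and scale, up to 5 called members in each direction with the largest log2 fold change were named, as were the paralogs, the further constituents, the 5 members with the most and the fewest UMIs, up to 3 called genes per list and comparison, and the 5 genes most like the family. Members described by composition, and members named because they were not called, were chosen after their values were seen. Some genes that this rule names are not reported here. The members and lists were chosen with earlier results of these data known. Alternatives covered the scaling (RLE, library size alone), DESeq2 1.42.0, the gene filter, the mouse term, the mitochondrial limit, doublets, clusters of low UMI counts, Leiden resolution 2, the fold limits, paralogs, thinning and each mouse alone. The fits were tested on simulated data.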

Additional observations from a re-analysis of the deposited data

Results flagged for a closer look

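Barcodes left out of the classes still held ribosomal protein UMIs. Barcodes above the mitochondrial limit, 367 in mouse 1 and 820 in mouse 2, drew 1.38% and 0.730% of their UMIs from the 77 genes, below the 3.71% and 2.96% of kept cells in both mice. Barcodes under the limits on UMIs or genes, 1156 and 1849, drew 1.14% and 1.5%. These barcodes entered no comparison.

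Genes whose symbols mark them as pseudogenes of ribosomal protein genes (5 in the deposited list) held 3100 UMIs in the kept cells of mouse 1 and 4297 in those of mouse 2, beside 5613954 and 5664669 of the members.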

How the results depend on the processing

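The counts of members called on the TMM scale depended most on the fold limit and the scaling. For neuron-like classes, 6 calls became 2 with library size alone, with a mitochondrial limit of 5%, without clusters of low UMI counts and without cells of over 50% long-gene UMIs (chosen after seeing the data), and 50 with a fold limit of 0.5. For oligodendrocyte-like cells, 74 became 44 with library size alone. For endothelial-like cells, 1 became 10 with the 5% limit, 5 with the lower fold limit and 2 with the paralogs included, and for habenular cells 0 became 1 with the lower fold limit.

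On the ribosomal protein scale a fold limit of 1 left 2 of 8 calls for neuron-like, 1 of 6 for oligodendrocyte-like and 0 of 20 for microglia-like cells, and no gene filter left 2 and 9 of the last 6 and 20. For habenular cells DESeq2 called 1. For endothelial-like cells DESeq2 called 3, and the 5% limit, leaving out clusters of low UMI counts and leaving out long-gene cells each gave 2. The cause of these changes was not tested.

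The ratio of border macrophage-like to astrocyte-like share, 13, was 14.2 with the 5% limit, 10.8 with doublets kept, 12.2 without Malat1 and 12.1 as a ratio of cell medians. The spread over cells, 11.6 times that of counting, was 5.01 after thinning, and the Rpl22l1 fold between classes, 7.29, was 8.87 with the 5% limit.

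In each mouse alone the share ratio was 12.5 to 13.5, the spread 9.19 to 14, the subunit ratio of precursor-like to border macrophage-like cells 1.3 to 1.38 and the Rpl22l1 fold 6.34 to 8.23. Members past the fold limit in each mouse alone numbered 49 to 74 for oligodendrocyte-like and 57 to 73 for microglia-like cells. Without the replicate block (the mouse term), 7 members were called for neuron-like, 74 for oligodendrocyte-like and 73 for microglia-like cells on the TMM scale, and 8, 4 and 19 on the other.

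Of 483 values of named members under the alternatives other than the fold limits and the paralogs, 458 kept their call, 25 lost it and 0 changed sign. With the 5% limit the fibroblast-like class of mouse 1 had too few cells, and depth limits the fibroblast-like and border macrophage-like classes most.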
